A study of Mus musculus with 24 samples.

Results

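The interaction between genotype label and day of fat cell differentiation was described across 12 RNA-seq libraries of mouse 3T3-L1 cells, a fibroblast-like preadipocyte line that forms fat cells after hormonal induction. They were all the RNA-seq libraries among the 24 samples of the series, chosen by assay and not by their values. Each gene was asked whether its day effect, day 7 over day 0, was the same in both lines. The 4 groups had 3 libraries each, labelled as biological replicates: LSD1 overexpression at day 7, LSD1 overexpression at day 0, control at day 7 and control at day 0. Day 0 was confluence, before induction. Both lines were at passages 13 to 18 and received the same induction mixture. It held 500 µM isobutylmethylxanthine, 10 µM rosiglitazone and 1 µM dexamethasone besides 10 µg/ml insulin, and was replaced at day 3 by medium with insulin. The promoter that drives the LSD1 construct, and whether the line is 1 clone, are not given in the sources used here. What is called a label difference below can thus be any difference between 2 cell lines, and these cannot be told apart.

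LSD1 is a histone demethylase, encoded by Kdm1a, that removes methyl groups from histone H3 as part of corepressor complexes. During adipogenesis, preadipocytes leave the cell cycle, lower their matrix and fibroblast genes and turn on a lipid-storing program under the transcription factors PPARγ and C/EBPα. The series is about LSD1 and beige fat cells, a mitochondria-rich kind of fat cell. A gene with a day effect of opposite sign in the 2 lines differs in kind of response, and a gene that moves further in the same direction differs in size of response. These were kept apart here.

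The measured Kdm1a level was lower with the label at day 7 and higher at day 0, where the difference did not pass the test. Kdm1a had 54.3, 55.4 and 54.4 CPM (scaled counts relative to library size) in the LSD1-labelled day 7 libraries, against 66.1, 67.6 and 74.5 CPM in control day 7 libraries. At day 0 it had 89.4, 104 and 99.0 CPM with the label, against 79.0, 86.3 and 84.1 CPM in control. The lines did not overlap at either day. The label difference was −0.34 (log2, SE 0.0967, edgeR adjusted p = 0.00751) at day 7 and 0.23 (SE 0.0958, edgeR adjusted p = 0.0969) at day 0. Kdm1a fell in both lines and fell further with the label (interaction −0.57, SE 0.136, edgeR adjusted p = 0.00345). Only RefSeq transcripts were counted, and whether the construct shares their sequence is not given in the sources used here. For this reason the libraries are called labelled and control libraries below.

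Depth was 27512273 to 30030309 counts per labelled day 7 library, 34098249 to 36301893 per labelled day 0 library, 27881281 to 31008490 per control day 7 library and 37032832 to 37565527 per control day 0 library. Pearson correlations of log2 CPM within groups were 0.988 to 0.993, except that labelled day 0 replicate 1 correlated at 0.955 and 0.957 with replicates 2 and 3. That library was higher than the other 2 in interferon genes, with a list mean of 6.16 log2 CPM, against 4.81 and 4.87 in them, and in cell cycle genes, with 6.09, against 5.09 and 5.05. It was lower in integrated stress response genes, with 5.67, against 6.87 and 6.90. It enters every labelled day effect and the estimate of spread that all groups share. For this reason the values that moved most without it are given beside the results. Summed adipocyte program genes reached 47614 to 51989 CPM in labelled day 7 libraries and 1004 to 1103 CPM in labelled day 0 libraries, against 15247 to 17218 CPM in control day 7 libraries and 998 to 1178 CPM in control day 0 libraries. These are bulk samples, so fewer cells of a type and less RNA per cell cannot be told apart. The part that a larger share of fat cells at day 7 has in the interactions was not tested. Among markers of other cell types, the macrophage genes Adgre1 and Tyrobp, the muscle genes Myod1, Myog, Pax7 and Myf5, the skeletal genes Sost and Acan and the endothelial genes Erg and Cldn5 had 0 counts in all 12 libraries. The 10 bone and cartilage markers summed to 46.4 to 49.8 CPM in labelled day 7 and 224 to 258 CPM in labelled day 0 libraries, against 120 to 158 CPM in control day 7 and 256 to 293 CPM in control day 0 libraries. Of the 4 that were tested, 1 had a higher and 3 a lower day effect with the label. The 9 endothelial markers summed to 1.76 to 2.32 CPM in labelled day 7 and 2.15 to 4.09 CPM in labelled day 0 libraries. In control they summed to 0.874 to 2.36 CPM at day 7 and 2.26 to 3.14 CPM at day 0. Of the 4 tested endothelial markers, 0 had a higher and 1, Vwf, a lower day effect with the label. Over all tested genes, for both marker lists, the shares were 23.9% higher and 28.1% lower. The part of these markers in the results was not tested.

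Most genes that changed during differentiation did so to a different degree in the 2 lines. Of 13356 genes tested, 3186 (23.9%) had a higher and 3747 (28.1%) a lower day effect in labelled than in control libraries at an edgeR adjusted p under 0.05. The median interaction over all tested genes was −0.06 on the log2 scale. Within the labelled libraries 4356 genes (32.6%) rose and 4969 (37.2%) fell, and within the control libraries 3168 (23.7%) rose and 3279 (24.6%) fell. Without labelled day 0 replicate 1, 4934 rose and 5354 fell in labelled libraries. The control calls moved too, to 4191 rising and 4341 falling genes. Just inside the threshold were Dbndd1 (interaction −1.47) and Gm15787 (−0.80), and just outside it Taf9 (0.49) and Setd2 (−0.45).

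The 6933 genes past the interaction fell into classes by the sign and the test of both day effects. Opposite day effects, each past its own test, were found for 818 genes, of which 354 (2.65% of those tested) rose in labelled and fell in control libraries and 464 (3.47%) fell in labelled and rose in control libraries. Amplification, the same direction in both lines and a larger change with the label, was more frequent, with 889 rising genes (6.66%) and 1044 falling genes (7.82%). Attenuation, a smaller change with the label, was found for 80 rising genes (0.599%) and 77 falling genes (0.577%), and without labelled day 0 replicate 1 for 164 and 189. A day effect past the test in labelled libraries alone accounted for 3062 genes, and in control libraries alone for 839. Neither day effect passed for the other 124. Opposite genes were 11.8% and amplified genes 27.9% of the genes past the interaction.

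**Figure D1:**
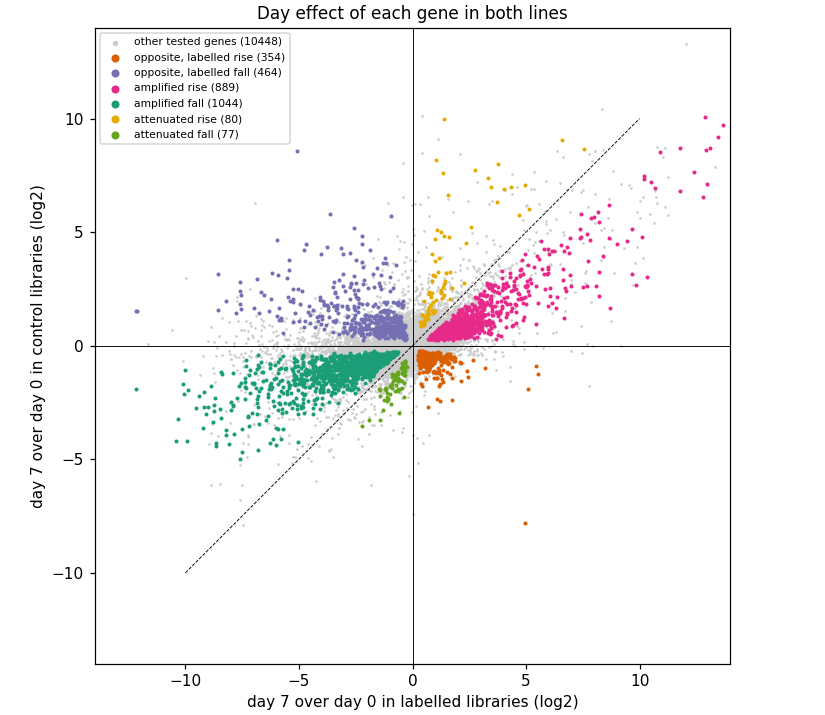
Each point is 1 of the 13356 tested genes, with its log2 day effect in labelled libraries on the x axis and in control libraries on the y axis. The dashed line marks equal effects. Genes beyond the ends of the axes are not shown, among them Ghrh and G0s2 (labelled day effects 14.75 and 14.33). The 464 genes of the upper left and the 354 of the lower right quadrant have opposite day effects, and the amplified genes, 889 rising and 1044 falling, lie between the dashed line and the x axis.

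The 2 opposite classes differed in size of effect and in level. Genes that fell with the label had a median day effect of −1.49 in labelled and 0.994 in control libraries, and a median mean level of 14.9 CPM. Genes that rose with the label had smaller medians, 0.622 in labelled and −0.544 in control libraries, at a median of 68.6 CPM. Day 7 and day 0 libraries did not overlap within either line for 322 of the 354 rising and 421 of the 464 falling genes, and for 6621 (49.6%) of all tested genes. Each gene of a class had already passed both day effects in these same libraries, so these counts are no further support. Among amplified genes the days did not overlap for 888 of 889 rising and 1038 of 1044 falling genes. The label differences at the 2 days, computed from the same libraries, had opposite median signs in both classes. In the falling class the labelled libraries were lower at day 7 (median −1.88) and higher at day 0 (median 0.723). In the rising class they were higher at day 7 (median 0.976) and lower at day 0 (median −0.226). With all 3 effects required to be at least 1 on the log2 scale, 196 falling and 24 rising genes stayed.

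The counts of opposite genes depended on 1 library and on the scaling. Without labelled day 0 replicate 1, 784 genes rose and 814 fell with the label against control, and 794 of the 818 kept their class. Without any other single library the counts were 252 to 348 and 333 to 458. With total counts alone as the scale the median interaction of all genes was −0.45, 25.0% of the genes past the interaction were higher, against 46.0% in the main analysis, and the opposite classes held 131 rising and 825 falling genes. Upper-quartile scaling gave a median of −0.24, 36.0% higher, and 224 rising and 569 falling genes. Of the 818 opposite genes, 595 kept their class with total counts, 688 with upper-quartile scaling and 559 with the trend of effects on GC content removed, which gave 473 rising and 408 falling genes in all.

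The genes with the largest opposite effects that fell with the label included the immune genes Il1rn, Iigp1 and Gbp6. They were ranked by the smaller of the 2 day effects among genes with a mean of at least 10 CPM and no overlap of days in either line. Il1rn, which encodes the antagonist of the interleukin 1 receptor, had 0.221, 0.310 and 0.466 CPM in labelled day 7 libraries, against 26.7, 3.72 and 4.64 CPM in labelled day 0 libraries. In control it had 83.1, 77.6 and 71.4 CPM at day 7, against 0.0785, 0.322 and 0.198 CPM at day 0. Labelled day 7 was thus as low as control day 0, and control day 7 was the highest group. The day effect was −5.10 (SE 0.822, edgeR adjusted p = 0.000106) in labelled and 8.57 (SE 0.850, edgeR adjusted p = 4.82e-06) in control libraries, and the interaction was −13.66 (SE 1.17). Without labelled day 0 replicate 1 the labelled day effect was −3.62 and the interaction −12.19.

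Gm4951 had 0, 0.362 and 0.155 CPM in labelled day 7 libraries, against 28.2, 3.22 and 3.21 CPM in labelled day 0 libraries. Control libraries held 39.6, 34.9 and 36.0 CPM of it at day 7, against 1.30, 1.33 and 1.71 CPM at day 0. Its neighbour in this ranking, Iigp1, encodes an interferon-inducible GTPase that acts at the membranes of intracellular parasites. Iigp1 had 0.552, 0 and 0.414 CPM in labelled day 7 libraries, against 53.0, 8.84 and 9.49 CPM in labelled day 0 libraries. In control libraries Iigp1 had 46.7, 41.7 and 44.7 CPM at day 7, against 4.12, 5.07 and 5.43 CPM at day 0. For both genes labelled day 0 replicate 1 was the highest of its group by more than the spread of the other 2. The days did not overlap in either line, which the ranking required. The interaction was −10.66 (SE 1.27) for Gm4951 and −9.38 (SE 1.05) for Iigp1, and without that library −8.82 and −8.01.

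Serpina3g, a serine protease inhibitor of a tandem family whose copies can share reads, had 3.31, 2.22 and 4.45 CPM in labelled day 7 libraries, against 201, 129 and 136 CPM in labelled day 0 libraries. The control libraries had 198, 183 and 171 CPM at day 7, against 21.6, 26.2 and 22.1 CPM at day 0. Labelled day 0 and control day 7 were at a like level, and labelled day 7 was the lowest group. Its interaction was −8.53 (SE 0.327, edgeR adjusted p = 3.7e-09). Prl2c2, a proliferin of the prolactin family with near-identical copies, had 5.24, 5.11 and 5.23 CPM in labelled day 7 libraries, against 77.7, 23.5 and 28.4 CPM in labelled day 0 libraries. In control it had 81.0, 116 and 76.0 CPM at day 7, against 13.6, 14.9 and 15.0 CPM at day 0. Gbp6, a guanylate-binding protein of the interferon response, had 3.03, 3.51 and 2.07 CPM in labelled day 7 libraries, against 22.3, 13.6 and 13.2 CPM in labelled day 0 libraries. Control libraries had 22.3, 21.1 and 26.2 CPM of Gbp6 at day 7, against 3.96, 3.02 and 3.25 CPM at day 0. The interaction was −5.70 (SE 0.533) for Prl2c2 and −5.27 (SE 0.352) for Gbp6, and without labelled day 0 replicate 1 −4.97 and −4.98. Both genes belong to families in which the counting could have divided reads among copies.

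The genes with the largest opposite effects that rose with the label included 4 cell surface or signalling proteins, Sema5a, Boc, Eda and Tenm4. Sema5a, a transmembrane semaphorin known from axon guidance, had 14.4, 11.7 and 9.73 CPM in labelled day 7 libraries, against 4.13, 2.79 and 3.76 CPM in labelled day 0 libraries. Control libraries had 13.0, 8.90 and 12.3 CPM at day 7, against 63.6, 49.9 and 65.7 CPM at day 0. At day 7 the lines overlapped, and at day 0 they lay far apart. Its day effect was 1.74 (SE 0.213, edgeR adjusted p = 8.47e-06) in labelled and −2.39 (SE 0.203, edgeR adjusted p = 1.24e-06) in control libraries, so its interaction of 4.13 (SE 0.293) came with a label difference of 0.07 (SE 0.200) at day 7 and −4.07 (SE 0.222) at day 0.

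Il4i1b showed the other pattern, a like level at day 0 and a gap at day 7. It had 58.6, 56.0 and 62.8 CPM in labelled day 7 libraries, against 22.3, 23.3 and 24.8 CPM in labelled day 0 libraries. Control libraries had 7.62, 13.0 and 6.66 CPM at day 7, against 26.4, 31.3 and 25.0 CPM at day 0. The label difference was 2.71 (SE 0.210) at day 7 and −0.23 (SE 0.195, edgeR adjusted p = 0.415) at day 0. Il4i1b starts at 44816370 on the plus strand of chromosome 7 and overlaps Atf5, which starts at 44816658 on the minus strand. Group means of Il4i1b were 59.2, 23.5, 9.08 and 27.6 CPM in labelled day 7, labelled day 0, control day 7 and control day 0. Those of Atf5 were 1060, 501, 189 and 510 CPM in the same order, so both had the same highest and lowest group. Whether counting used strand is not given, so Il4i1b and Atf5 can share reads, and the part of shared reads was not tested. Boc, a coreceptor of hedgehog ligands, crossed over completely. It had 149, 160 and 148 CPM in labelled day 7 libraries, against 38.8, 51.4 and 56.7 CPM in labelled day 0 libraries. The control libraries had 68.2, 60.8 and 62.1 CPM of Boc at day 7, against 147, 153 and 150 CPM at day 0. The interaction was 2.94 (SE 0.284) for Il4i1b and 2.87 (SE 0.181) for Boc.

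Ddah1, which degrades an inhibitor of nitric oxide synthase, had 60.8, 64.1 and 54.2 CPM in labelled day 7 libraries, against 24.1, 27.8 and 28.5 CPM in labelled day 0 libraries. In control libraries Ddah1 had 24.7, 24.7 and 21.9 CPM at day 7, against 79.7, 83.1 and 81.8 CPM at day 0. Labelled day 0 and control day 7 were again the 2 low groups. Eda, the TNF-family ligand ectodysplasin, had 29.3, 29.4 and 36.0 CPM in labelled day 7 libraries, against 18.6, 12.7 and 10.4 CPM in labelled day 0 libraries. Control libraries had 11.5, 9.36 and 11.4 CPM of Eda at day 7, against 22.9, 25.9 and 26.5 CPM at day 0. Tenm4, a teneurin of the cell surface, had 45.5, 55.8 and 52.2 CPM in labelled day 7 libraries, against 5.85, 25.5 and 21.4 CPM in labelled day 0 libraries, with replicate 1 far below the other 2. In control libraries Tenm4 had 16.5, 20.8 and 16.9 CPM at day 7, against 45.2, 34.4 and 42.8 CPM at day 0. The interaction was 2.93 (SE 0.156) for Ddah1, 2.41 (SE 0.274) for Eda and 2.71 (SE 0.515) for Tenm4, whose value was 2.30 without labelled day 0 replicate 1. All 12 genes of these 2 rankings kept their class without labelled day 0 replicate 1. They had been picked from the same libraries for large effects and no overlap of days, so this is no separate support.

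**Figure D2:**
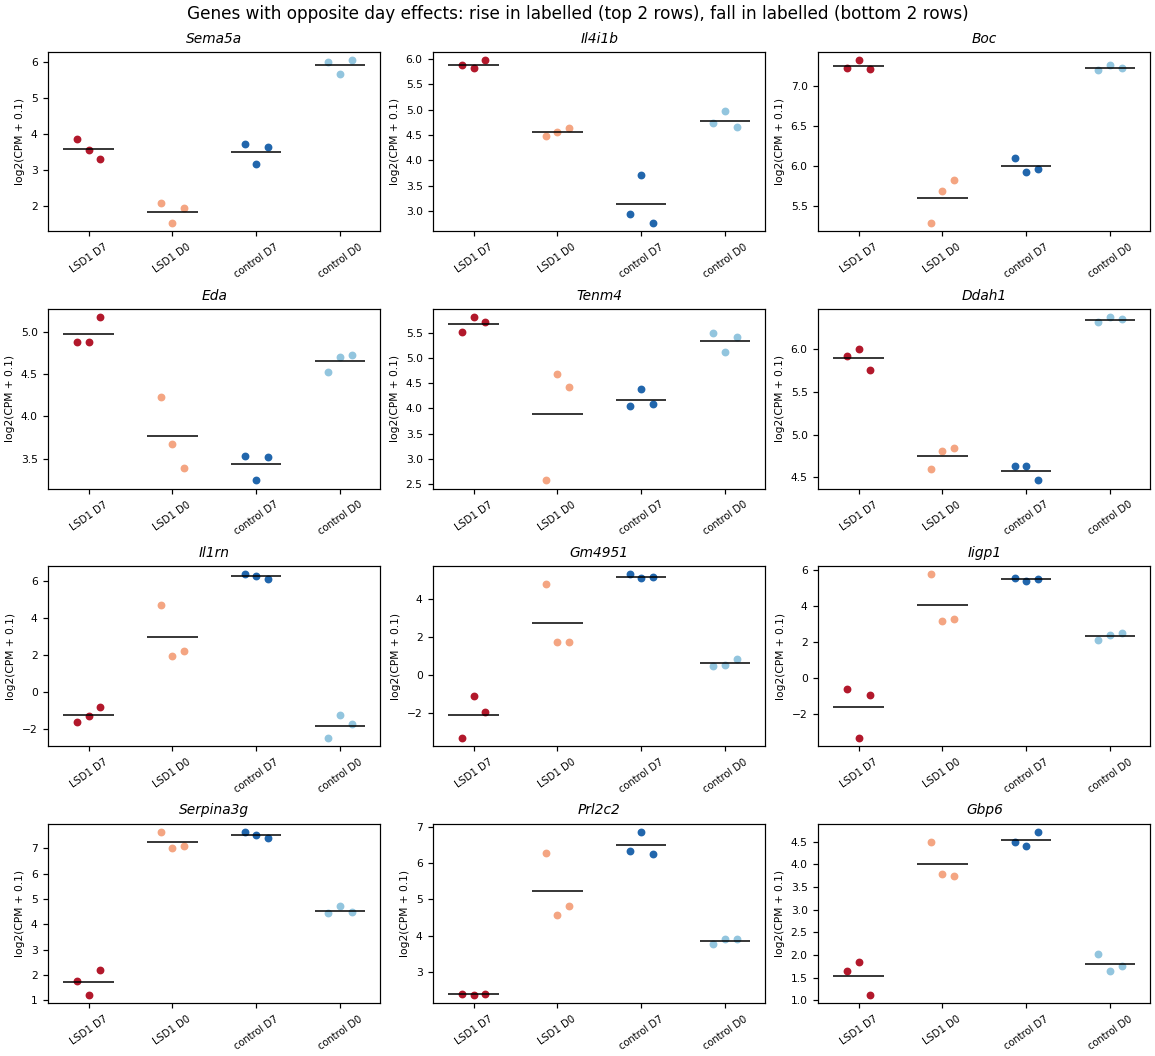
Level of the 12 genes with the largest opposite day effects, as log2(CPM + 0.1), 1 point per library and a line at the group mean; each panel has its own y axis. In the top 6 panels labelled libraries are higher at day 7 and control libraries lower at day 7, and in the bottom 6 panels the reverse holds. Labelled day 0 replicate 1 is the leftmost point of its group and lies apart for Tenm4, Il1rn, Gm4951, Iigp1 and Prl2c2.

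Interferon-stimulated genes, many of which encode antiviral proteins, were the list with the largest share of opposite signs. Of 30 tested members, 29 had a lower day effect with the label and none a higher one, against 28.1% lower among all tested genes. Opposite day effects were found for 20, which fell in labelled and rose in control libraries, and 8 fell in labelled libraries alone. These 2 classes held 3.47% and 12.8% of all tested genes. The median day effect of the list was −4.60 in labelled and 1.13 in control libraries. The list mean was 1.05, 1.06 and 0.96 log2 CPM in labelled day 7 libraries, against 6.16, 4.81 and 4.87 in labelled day 0 libraries. Control libraries had 4.26, 4.31 and 4.54 log2 CPM at day 7, against 3.04, 3.05 and 3.22 at day 0. Labelled libraries were thus the highest group at day 0 and the lowest at day 7. Without labelled day 0 replicate 1, 29 were still lower, and 26 had opposite day effects.

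Ifit1, which encodes a protein that binds foreign RNA, had 0.827, 0.826 and 0.621 CPM in labelled day 7 libraries, against 305, 96.7 and 103 CPM in labelled day 0 libraries. Control libraries had 38.1, 34.3 and 45.2 CPM of Ifit1 at day 7, against 11.5, 12.7 and 18.5 CPM at day 0. Its relative Ifit2, the member with the smallest adjusted p, had 2.15, 2.12 and 1.92 CPM in labelled day 7 libraries, against 36.1, 33.2 and 30.2 CPM in labelled day 0 libraries. In control libraries Ifit2 had 18.7, 21.6 and 22.2 CPM at day 7, against 19.6, 18.8 and 22.0 CPM at day 0, which overlap. The interaction was −9.25 (SE 0.645, edgeR adjusted p = 2.38e-07) for Ifit1 and −4.05 (SE 0.195, edgeR adjusted p = 1.46e-08) for Ifit2. Mx1, an antiviral GTPase, had 0 counts in the 3 labelled day 7 libraries, against 1830 counts in the labelled day 0 libraries, and was at least 434-fold lower at day 7, taking 3 counts over the group as its floor. Oas1a, a sensor of double-stranded RNA, likewise had 0 counts, against 403, and was at least 95.7-fold lower. Ifit1 and 8 other members named in this account, Gbp3, Asns, Chac1, Atf4, Ndufa11, C3, Cxcl1 and Ccl2, and the low-count members Mx1 and Oas1a, were picked after their values were seen.

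All 12 tested interferon-inducible GTPases had a lower day effect with the label, and 7 had opposite signs, or 9 without labelled day 0 replicate 1. With all libraries, 28.1% of all tested genes were lower and 3.47% opposite falls. Their median day effect was −3.88 in labelled and 1.36 in control libraries. Gbp3 had 0.221, 0.620 and 1.09 CPM in labelled day 7 libraries, against 33.8, 11.4 and 12.4 CPM in labelled day 0 libraries. Control libraries had 14.8, 13.4 and 17.2 CPM of Gbp3 at day 7, against 2.24, 2.86 and 3.33 CPM at day 0. The days did not overlap in either line, and its interaction was −7.30 (SE 0.668, edgeR adjusted p = 2.17e-06). The GTPases are tandem families whose near-identical copies can share reads.

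The promoters of Ifit1 and Gbp3, picked after their values were seen, are shown for the letters of the interferon-stimulated response element. The motif searched was GAAANNGAA on both strands, in the 250 bases before and 50 after each RefSeq start (GRCm38.p6). It was found for 13 of 23 interferon genes and 9 of 9 GTPases with an entry, for 15.8% of 354 opposite falling genes with an entry, for 8.40% of all tested genes with an entry and for 9.76% of all 27025 genes in the table. The amplified falling genes had it in 7.67% of 769, and Ifit2 had no match. The part of these letters in the day effects was not tested. These letters were set after shares of the classes had been seen. The capitals mark the motif in Ifit1 (chr19:34640639-34640938, plus strand, 3 matches) and in Gbp3 (chr3:142559794-142560093, plus strand, 2 matches), some of which can overlap, and a match describes letters, not a bound factor.
Ifit1: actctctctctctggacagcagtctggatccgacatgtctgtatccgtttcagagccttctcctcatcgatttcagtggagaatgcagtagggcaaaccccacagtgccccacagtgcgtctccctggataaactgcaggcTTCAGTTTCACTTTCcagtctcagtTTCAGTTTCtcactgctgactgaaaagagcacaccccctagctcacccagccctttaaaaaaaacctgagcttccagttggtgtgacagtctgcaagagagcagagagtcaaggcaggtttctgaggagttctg
Gbp3: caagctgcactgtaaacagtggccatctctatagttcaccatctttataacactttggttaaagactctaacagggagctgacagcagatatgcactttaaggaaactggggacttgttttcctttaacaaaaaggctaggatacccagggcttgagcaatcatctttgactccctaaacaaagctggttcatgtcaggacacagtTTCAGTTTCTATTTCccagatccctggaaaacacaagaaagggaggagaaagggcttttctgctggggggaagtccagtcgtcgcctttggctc

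Antigen presentation followed in part. Of 17 tested genes of MHC class I and antigen processing, 9 had a lower day effect and none a higher one, and 5 had opposite signs, B2m, Nlrc5, Psmb8, Psmb9 and Tap1. The shares of all tested genes were 28.1% lower, 23.9% higher and 3.47% opposite falls. Nlrc5, the transactivator of MHC class I genes, averaged 7.33 ± 1.06 CPM in labelled day 7 libraries, against 27.2 ± 5.76 CPM in labelled day 0 libraries (SD, n = 3 each). In control libraries Nlrc5 averaged 28.4 ± 5.42 CPM at day 7, against 1.54 ± 0.834 CPM at day 0. Labelled day 0 and control day 7 overlapped, and the interaction was −6.09 (SE 0.457, edgeR adjusted p = 4.19e-07). The median interaction of this list was −0.69, and without labelled day 0 replicate 1 it was −0.36, with 9 members lower, 2 higher, 4 opposite falls and 1 opposite rise.

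Chemokines and inflammatory genes moved with a lower day effect in 22 of 24 tested members and a higher one in 1. Of these lower members, 5 had opposite signs, 10 fell in labelled libraries alone and 7 were amplified falls. The shares of all tested genes were 28.1% lower and 23.9% higher. By class they were 3.47% opposite falls, 12.8% falls in labelled libraries alone and 7.82% amplified falls. Cxcl5, a neutrophil-attracting chemokine, had 2.21, 1.81 and 2.17 CPM in labelled day 7 libraries, against 364, 394 and 431 CPM in labelled day 0 libraries. Control libraries had 44.6, 57.8 and 37.2 CPM of Cxcl5 at day 7, against 10.4, 7.73 and 8.41 CPM at day 0. Cxcl1, of the same family, had 16.9, 19.1 and 14.3 CPM in labelled day 7 libraries, against 109, 133 and 152 CPM in labelled day 0 libraries. In control libraries Cxcl1 had 44.3, 53.1 and 42.0 CPM at day 7, against 10.1, 7.81 and 8.61 CPM at day 0. Both thus crossed over between the days. The interaction was −9.98 (SE 0.273, edgeR adjusted p = 4.23e-10) for Cxcl5 and −5.36 (SE 0.236, edgeR adjusted p = 8.56e-09) for Cxcl1.

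Ccl2, the monocyte-attracting chemokine, is an example of a fall in labelled libraries alone. It had 4.80, 3.51 and 2.90 CPM in labelled day 7 libraries, against 570, 194 and 244 CPM in labelled day 0 libraries. Control libraries had 71.0, 89.5 and 78.5 CPM at day 7, against 100, 115 and 77.4 CPM at day 0, which overlap. The day effect was −6.49 (SE 0.421) in labelled and −0.29 (SE 0.321, edgeR adjusted p = 0.479) in control libraries. The macrophage markers Adgre1 and Tyrobp had 0 counts, and the sum of the 9 macrophage markers in the files was 6.82 to 7.19 CPM in labelled day 7 libraries and 17.9 to 34.5 CPM in labelled day 0 libraries, against 13.9 to 16.3 CPM in control day 7 libraries and 17.5 to 23.4 CPM in control day 0 libraries.

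Complement and acute-phase genes, which fat cells release in inflammation, held 7 of the 80 attenuated rises. Of 17 tested members 14 had a lower day effect with the label, and 3 had opposite signs. Over all tested genes 28.1% were lower, 3.47% opposite falls and 0.599% attenuated rises. Saa3, a serum amyloid, had 139, 116 and 169 CPM in labelled day 7 libraries, against 22.9, 66.4 and 71.4 CPM in labelled day 0 libraries. In control libraries Saa3 had 277, 262 and 434 CPM at day 7, against 0.275, 0.161 and 0.516 CPM at day 0. Both lines rose, but the labelled libraries already held Saa3 at day 0. Steap4, a metalloreductase induced by inflammation and feeding, had 11.0, 13.1 and 13.4 CPM in labelled day 7 libraries, against 10.9, 3.29 and 4.31 CPM in labelled day 0 libraries. Control libraries had 142, 123 and 132 CPM of Steap4 at day 7, against 0.550, 0.322 and 0.476 CPM at day 0. The interaction was −8.57 (SE 0.650, edgeR adjusted p = 4.55e-07) for Saa3 and −7.16 (SE 0.551, edgeR adjusted p = 5.15e-07) for Steap4.

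Lcn2, the iron-binding lipocalin 2, rose to 1091, 1220 and 1255 CPM in labelled day 7 libraries, against 60.2, 96.6 and 103 CPM in labelled day 0 libraries. Control libraries had 646, 712 and 573 CPM at day 7, against 2.16, 2.86 and 2.58 CPM at day 0. Labelled libraries were higher at both days, and the change was smaller with the label, with an interaction of −4.21 (SE 0.272, edgeR adjusted p = 1.36e-07). C3, the central complement component, had opposite signs. It had 1195, 1415 and 1535 CPM in labelled day 7 libraries, against 2005, 2417 and 2465 CPM in labelled day 0 libraries. In control libraries C3 had 7804, 6916 and 7469 CPM at day 7, against 599, 679 and 613 CPM at day 0. C1s1, a complement protease, fell in labelled libraries alone, with 10.1, 8.52 and 9.01 CPM at day 7, against 234, 302 and 286 CPM at day 0. In control libraries it had 188, 164 and 209 CPM at day 7, against 155, 158 and 152 CPM at day 0. The interaction was −4.29 (SE 0.185) for C3 and −5.17 (SE 0.185) for C1s1, and without labelled day 0 replicate 1 C1s1 joined the opposite class.

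Genes of the integrated stress response, which ATF4 turns on when amino acids run short or mitochondria fail, had more opposite rises than any other list with all 12 libraries in the fit. Of 24 tested members 12 had a higher and 2 a lower day effect with the label, and 5 rose in labelled and fell in control libraries: Asns, Atf4, Atf5, Chac1 and Psat1. Over all tested genes the shares were 23.9% higher, 28.1% lower and 2.65% opposite in this direction. The median day effect was 1.06 in labelled and −0.226 in control libraries. With total counts alone as the scale 6 members were higher and 3 lower. The list mean was 7.41, 7.55 and 7.55 log2 CPM in labelled day 7 libraries and 5.67, 6.87 and 6.90 in labelled day 0 libraries, against 5.49, 5.76 and 5.53 in control day 7 libraries and 5.44, 5.57 and 5.48 in control day 0 libraries. The labelled day 7 libraries were above all others. Without labelled day 0 replicate 1, which was the low one, 13 members were higher, 4 lower and 6 opposite.

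Atf5, a stress-induced transcription factor, had 955, 1040 and 1185 CPM in labelled day 7 libraries, against 476, 504 and 523 CPM in labelled day 0 libraries. Control libraries had 180, 208 and 181 CPM of Atf5 at day 7, against 494, 527 and 510 CPM at day 0. At day 0 the lines overlapped. Atf4 itself had 825, 788 and 823 CPM in labelled day 7 libraries, against 381, 572 and 576 CPM in labelled day 0 libraries. In control libraries Atf4 had 195, 257 and 220 CPM at day 7, against 345, 372 and 343 CPM at day 0. The interaction was 2.51 (SE 0.153, edgeR adjusted p = 7.67e-08) for Atf5 and 1.33 (SE 0.214, edgeR adjusted p = 0.00022) for Atf4.

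Asns, the asparagine synthetase, had 669, 700 and 760 CPM in labelled day 7 libraries, against 276, 434 and 464 CPM in labelled day 0 libraries. Control libraries had 131, 181 and 128 CPM of Asns at day 7, against 213, 247 and 226 CPM at day 0. Chac1, which breaks down glutathione, had 175, 171 and 193 CPM in labelled day 7 libraries, against 47.2, 114 and 123 CPM in labelled day 0 libraries. In control libraries Chac1 had 13.7, 18.3 and 11.1 CPM at day 7, against 30.2, 33.7 and 32.1 CPM at day 0. The days did not overlap in either line for these 2 genes. The interaction was 1.50 (SE 0.260) for Asns and 2.08 (SE 0.399) for Chac1, and without labelled day 0 replicate 1 it was 1.30 and 1.76. Fgf21, a hormone that this pathway induces, did not pass (interaction 2.96, SE 1.88, edgeR adjusted p = 0.207). It had 6.62, 10.7 and 9.99 CPM in labelled day 7 libraries, against 0.450, 2.93 and 2.48 CPM in labelled day 0 libraries, and 2 and 4 counts in all over the control day 7 and control day 0 libraries.

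The promoters of Asns (chr6:7693160-7693459, minus strand) and Chac1 (chr2:119350992-119351291, plus strand) are shown for the core letters of the C/EBP-ATF element to which ATF4 dimers bind. The motif searched, TGATGNAA on both strands, is in capitals. It was found for 8 of 21 genes of the list with an entry, for 3.53% of 283 opposite rising genes with an entry, for 2.83% of all tested genes with an entry and for 4.51% of all 27025 genes in the RefSeq table (GRCm38.p6).
Asns: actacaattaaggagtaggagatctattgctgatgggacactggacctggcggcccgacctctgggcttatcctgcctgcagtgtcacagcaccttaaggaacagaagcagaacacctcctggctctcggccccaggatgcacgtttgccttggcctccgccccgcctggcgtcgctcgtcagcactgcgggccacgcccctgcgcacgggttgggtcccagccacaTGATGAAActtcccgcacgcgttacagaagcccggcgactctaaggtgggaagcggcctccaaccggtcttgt
Chac1: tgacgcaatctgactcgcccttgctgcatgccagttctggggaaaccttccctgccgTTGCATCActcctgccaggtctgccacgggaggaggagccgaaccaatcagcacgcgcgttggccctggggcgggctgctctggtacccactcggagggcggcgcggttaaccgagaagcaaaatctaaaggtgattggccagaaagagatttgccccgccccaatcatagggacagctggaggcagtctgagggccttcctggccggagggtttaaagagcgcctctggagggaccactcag

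Among the lists, those of fat storage and of mitochondrial energy metabolism held many amplified rises. The adipocyte program rose in both lines for all 26 tested members, and for 17 of them the rise was larger with the label, against 23.9% of all tested genes with a higher day effect. For 2 members the rise was smaller. The master regulator Pparg had 337, 338 and 350 CPM in labelled day 7 libraries, against 24.6, 36.9 and 36.1 CPM in labelled day 0 libraries. In control libraries Pparg had 139, 133 and 127 CPM at day 7, against 37.3, 39.8 and 38.9 CPM at day 0. The interaction of Pparg was 1.61 (SE 0.189). That of its partner Cebpa was 2.80 (SE 0.232). Adipoq, the fat cell hormone adiponectin, had 684, 620 and 736 CPM in labelled day 7 libraries, against 0.205, 0.143 and 0.219 CPM in labelled day 0 libraries. Control libraries had 472, 452 and 479 CPM of Adipoq at day 7, against 0.393, 0.604 and 2.30 CPM at day 0. The interaction of Adipoq was 3.05 (SE 0.685, edgeR adjusted p = 0.00243). The label difference was 0.54 (SE 0.278, edgeR adjusted p = 0.107) at day 7 and −2.51 (SE 0.626, edgeR adjusted p = 0.0111) at day 0.

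The largest amplified rises among genes with a mean of at least 10 CPM were in Ghrh, Cmbl, Adgrf5 and G0s2. Adgrf5, an adhesion G protein-coupled receptor, had 156, 168 and 151 CPM in labelled day 7 libraries, against 0.491, 0.465 and 0.183 CPM in labelled day 0 libraries. In control libraries Adgrf5 had 2.58, 2.32 and 3.41 CPM at day 7, against 0.707, 0.967 and 0.992 CPM at day 0. Cmbl, a hydrolase, had 91.3, 82.8 and 85.4 CPM in labelled day 7 libraries, against 0, 0.143 and 0.0365 CPM in labelled day 0 libraries. Control libraries had 4.28, 3.34 and 4.00 CPM of Cmbl at day 7, against 0.314, 0.362 and 0.754 CPM at day 0. Both rose to a level at labelled day 7 that no other group approached. The interaction was 7.05 (SE 0.367) for Adgrf5 and 7.31 (SE 0.602) for Cmbl.

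Ghrh, the growth hormone-releasing hormone of the hypothalamus, had 149, 142 and 151 CPM in labelled day 7 libraries and 3.70, 3.34 and 3.00 CPM in control day 7 libraries. At day 0 it had 0 counts in all labelled libraries and 2 counts over the control libraries. It was at least 3915-fold higher at day 7 with the label, against a floor of 3 counts over the group, and 126-fold higher in control (exact 95% counting interval 34.5 to 1046). The fitted interaction, 8.03 (SE 1.74, edgeR adjusted p = 0.00278), rests on these few day 0 counts, and without control day 0 replicate 3 it was 5.46 with an edgeR adjusted p of 1. G0s2, an inhibitor of the lipase that starts lipolysis, had 631, 622 and 628 CPM in labelled day 7 libraries and 165, 144 and 145 CPM in control day 7 libraries. Its day 0 level was 0, 0 and 0.0730 CPM in labelled libraries, against 1.06, 0.282 and 0.714 CPM in control libraries, so that its interaction of 6.56 (SE 0.686) also leaned on 2 labelled day 0 counts. Agpat2, an enzyme of triglyceride synthesis, had an interaction of 2.78 (SE 0.188) with levels of at least 13.0 CPM in each library.

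Oxidative phosphorylation, the nuclear-encoded part of the respiratory chain, rose with the label in all 77 tested genes and in control libraries in 40, with 4 falling there. Of all tested genes 32.6% rose with the label, and 23.7% rose and 24.6% fell in control libraries. The day effect was higher with the label for 67 genes and lower for none. Of these 34 were amplified, 29 rose in labelled libraries alone and 4 had opposite signs, Atp5h, Atp5l, Ndufa11 and Ndufa7. Over all tested genes 23.9% were higher, 6.66% amplified rises, 10.1% rises in labelled libraries alone and 2.65% opposite rises. The list mean was 8.05, 7.88 and 7.97 log2 CPM in labelled day 7 libraries and 6.23, 5.42 and 5.69 in labelled day 0 libraries, against 6.39, 6.45 and 6.54 in control day 7 libraries and 5.73, 6.11 and 5.74 in control day 0 libraries. Labelled day 7 libraries stood above the rest, and the day 0 libraries of the lines overlapped. Without labelled day 0 replicate 1, 74 genes were higher, and 52 of them were amplified.

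Cyc1, the cytochrome of complex III, had 732, 777 and 953 CPM in labelled day 7 libraries, against 141, 91.9 and 111 CPM in labelled day 0 libraries. In control libraries Cyc1 had 167, 170 and 182 CPM at day 7, against 130, 150 and 139 CPM at day 0, a difference that did not pass (0.31, edgeR adjusted p = 0.105). Ndufa11, an assembly subunit of complex I, had 418, 389 and 453 CPM in labelled day 7 libraries, against 160, 78.7 and 102 CPM in labelled day 0 libraries. Control libraries had 97.1, 100 and 98.6 CPM of Ndufa11 at day 7, against 144, 159 and 129 CPM at day 0. The opposite sign thus came with a small change in control, −0.55 (SE 0.197, edgeR adjusted p = 0.0351), beside 1.89 (SE 0.202) in labelled libraries. The interaction was 2.53 (SE 0.213) for Cyc1 and 2.44 (SE 0.281) for Ndufa11.

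The TCA cycle list was amplified almost throughout, with 21 amplified rises among 23 tested genes and 22 higher in all. The shares of all tested genes, here and for the lists below, were 6.66% amplified rises, 23.9% higher and 28.1% lower. Idh3a, a subunit of isocitrate dehydrogenase, had 1016, 924 and 975 CPM in labelled day 7 libraries, against 57.3, 59.6 and 70.7 CPM in labelled day 0 libraries. Control libraries had 281, 266 and 248 CPM of Idh3a at day 7, against 85.5, 83.2 and 85.6 CPM at day 0. In fatty acid oxidation 19 of 21 were higher, 13 as amplified rises, and Decr1, which handles unsaturated fatty acids, had an interaction of 2.32 (SE 0.137, edgeR adjusted p = 6.61e-08). The mitochondrial ribosome had 58 of 76 higher and none lower, 24 as amplified rises and 32 as rises in labelled libraries alone, and 35 were higher with total counts alone as the scale. Mrpl12, a protein of its large subunit, had 506, 543 and 609 CPM in labelled day 7 libraries, against 96.6, 69.7 and 94.4 CPM in labelled day 0 libraries. In control libraries Mrpl12 had 161, 159 and 135 CPM at day 7, against 87.9, 93.0 and 86.3 CPM at day 0. Among regulators, Esrra, a nuclear receptor for mitochondrial genes, was amplified with an interaction of 1.95 (SE 0.179). Nrf1, a factor for respiratory genes, and the coactivator Ppargc1a did not pass (interaction 0.08, SE 0.198 and −0.11, SE 0.354). Without labelled day 0 replicate 1 Ppargc1a passed as an attenuated rise (−0.41, edgeR adjusted p = 0.043). Of the 25 genes of mitochondrial biogenesis 13 were higher and 0 lower, and 9 and 3 with total counts.

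Cytosolic metabolism showed a mixture, to be read beside 23.9% higher and 28.1% lower among all tested genes. Of 20 tested genes of lipogenesis and triglyceride synthesis 15 were higher and 3 lower, and Me1, the malic enzyme that yields NADPH, rose in labelled libraries alone. Me1 had 228, 226 and 225 CPM in labelled day 7 libraries, against 56.5, 53.7 and 57.2 CPM in labelled day 0 libraries. Control libraries had 59.8, 63.7 and 62.9 CPM of Me1 at day 7, against 54.0, 54.0 and 56.0 CPM at day 0. These control days did not overlap, but the difference did not pass (0.18, edgeR adjusted p = 0.0864). Without labelled day 0 replicate 1 Me1 was an amplified rise. Cholesterol synthesis was higher in 8 of 21 and lower in none, and in 18 of 21, with 9 opposite rises, without labelled day 0 replicate 1. In that library the list mean was 6.51 log2 CPM, against 5.05 and 5.00 in replicates 2 and 3. Lss, the cyclase of that pathway, had 129, 144 and 139 CPM in labelled day 7 libraries, against 69.1, 32.7 and 31.0 CPM in labelled day 0 libraries, and its interaction was 1.79 (SE 0.338). The cytosolic ribosome had 1 higher and 11 lower of 76, against 11 each without labelled day 0 replicate 1, 0 and 32 with total counts and 0 and 18 with upper-quartile scaling. In the main fit 64 of the 76 did not pass the interaction, and both called shares lay below those of all tested genes.

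The shares of all tested genes to set beside the remaining lists are 23.9% higher and 28.1% lower. Glycolysis was higher in 12 and lower in 2 of 19 tested genes, and in 8 and 3 with total counts alone as the scale. Glucocorticoid response genes were higher in 9 and lower in 4 of 16, and in 6 and 5 with total counts. Thermogenic genes were higher in 5 and lower in 0 of 14, in 3 and 3 with total counts, and in 7 and 3 without labelled day 0 replicate 1. The proteasome was higher in 14 and lower in 0 of 31, and with total counts alone as the scale in 3 and 0. Genes of contractile fibres were higher in 2 and lower in 10 of 19, and in 5 and 10 without labelled day 0 replicate 1. The genes of LSD1 and its complexes were higher in 5 and lower in 7 of 22, shares near those of all tested genes, and in 1 and 10 with total counts. Markers of muscle summed to 33.6 to 44.1 CPM in labelled day 7 libraries and 7.44 to 20.1 CPM in labelled day 0 libraries, against 12.9 to 16.0 CPM in control day 7 libraries and 4.83 to 5.99 CPM in control day 0 libraries. Their part in the results was not tested.

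**Figure D3:**
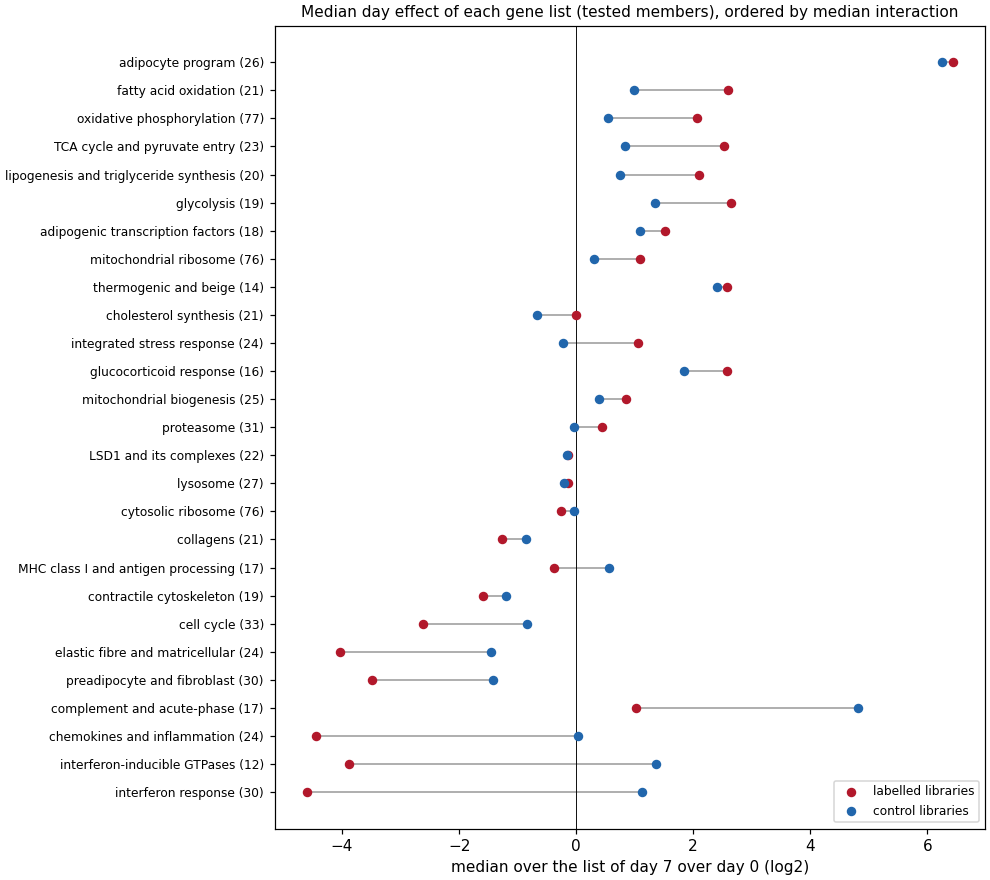
Median log2 day effect of the tested members of each gene list (number in parentheses), red for labelled and blue for control libraries, ordered by median interaction. The points lie on different sides of 0 for the interferon response (−4.60 and 1.13), the GTPases, antigen processing, chemokines, the integrated stress response and the proteasome. The control point is near 0 for chemokines (0.0258) and the proteasome (−0.0417). Both points lie on the same side, further out with the label, for oxidative phosphorylation (2.06 and 0.550) and the cell cycle (−2.62 and −0.840).

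**Figure D4:**
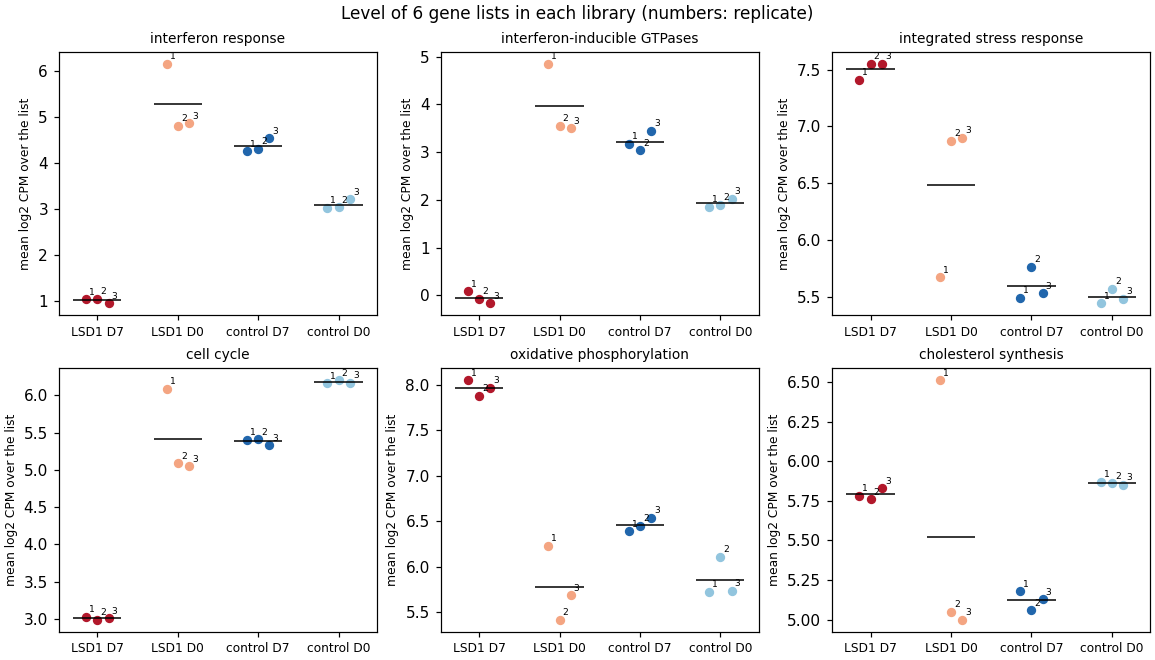
Mean log2 CPM of 6 gene lists in each of the 12 libraries, with the replicate number beside each point and a line at the group mean. Labelled day 0 replicate 1 lies apart from replicates 2 and 3 in each panel, by most for cholesterol synthesis (6.51, against 5.05 and 5.00), and the labelled day 7 libraries are the lowest for interferon, GTPase and cell cycle genes.

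Amplified falls, 7.82% of all tested genes, made up 14 of 33 tested cell cycle genes, 18 of 30 fibroblast genes and 12 of 24 genes of elastic fibres and matricellular proteins. Among collagens they were 6 of 21, and 11 of 21 did not pass the interaction. In the cell cycle list 21 had a lower and 4 a higher day effect, against 28.1% and 23.9% of all tested genes. Ccnb1, the mitotic cyclin B1, had 0.607, 0.620 and 0.362 CPM in labelled day 7 libraries, against 24.3, 16.4 and 13.3 CPM in labelled day 0 libraries. In control libraries Ccnb1 had 11.9, 11.6 and 12.2 CPM at day 7, against 20.2, 18.5 and 19.1 CPM at day 0. The replication cyclin Ccne2 went the other way and rose in labelled libraries alone, with 38.9, 37.8 and 32.4 CPM at day 7, against 10.2, 7.80 and 7.34 CPM at day 0. The interaction was −4.38 (SE 0.341) for Ccnb1 and 1.91 (SE 0.209) for Ccne2. The median interaction of the list was −1.55, and without labelled day 0 replicate 1 it was −0.82.

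Among fibroblast genes 22 of 30 were lower and 2 higher, and 1, Pdgfra, had opposite signs. The shares of all tested genes were 28.1% lower, 23.9% higher and 3.47% opposite falls. Pdgfra encodes the PDGF receptor that marks fat cell precursors, and its interaction was −4.64. Fbln1, a matrix glycoprotein, had 0.827, 1.65 and 1.35 CPM in labelled day 7 libraries, against 144, 120 and 128 CPM in labelled day 0 libraries. Control libraries had 51.1, 49.8 and 46.8 CPM of Fbln1 at day 7, against 75.7, 86.9 and 77.1 CPM at day 0. Both lines fell, and labelled libraries lost nearly all of it (interaction −5.97, SE 0.233, edgeR adjusted p = 3.7e-09). Col3a1, a fibrillar collagen, was an exception in direction, since its fall was smaller with the label. It had 917, 899 and 903 CPM in labelled day 7 libraries, against 1872, 2323 and 2177 CPM in labelled day 0 libraries. In control libraries Col3a1 had 1978, 1805 and 2262 CPM at day 7, against 7352, 7631 and 7952 CPM at day 0. Its interaction was 0.70 (SE 0.165, edgeR adjusted p = 0.00345) and 0.29 (edgeR adjusted p = 0.159) with total counts alone as the scale.

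The largest amplified falls with a mean of at least 10 CPM were in P4ha3, Sfrp2, S1pr1 and Mmp9. S1pr1, a receptor for sphingosine-1-phosphate, had 0.110, 0.103 and 0.104 CPM in labelled day 7 libraries, against 44.7, 34.4 and 34.5 CPM in labelled day 0 libraries. Control libraries had 11.0, 9.22 and 9.74 CPM of S1pr1 at day 7, against 21.9, 21.7 and 22.4 CPM at day 0. Mmp9, a gelatinase, had 0, 0.103 and 0.104 CPM in labelled day 7 libraries, against 46.7, 55.2 and 53.3 CPM in labelled day 0 libraries. In control libraries Mmp9 had 19.1, 15.3 and 22.3 CPM at day 7, against 78.0, 88.7 and 93.1 CPM at day 0. Near loss at labelled day 7 was thus set beside a partial fall in control. The interaction was −7.28 (SE 0.287) for S1pr1 and −7.22 (SE 0.399) for Mmp9.

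Sfrp2, a secreted Wnt antagonist, had 0.165, 0 and 0.104 CPM in labelled day 7 libraries, against 41.9, 135 and 124 CPM in labelled day 0 libraries. Control libraries had 47.6, 47.9 and 38.7 CPM of Sfrp2 at day 7, against 185, 201 and 197 CPM at day 0. P4ha3, a subunit of the enzyme that hydroxylates collagen prolines, had 0 counts at labelled day 7, against 44.5, 17.3 and 12.5 CPM in labelled day 0 libraries, and was at least 454-fold lower at day 7. In control libraries P4ha3 had 9.62, 8.85 and 9.03 CPM at day 7, against 34.9, 35.5 and 31.4 CPM at day 0. The fitted interaction was −7.95 (SE 0.748) for Sfrp2 and −10.29 (SE 1.27) for P4ha3, the second of which rests on a group without counts.

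The attenuated falls with the largest interactions were in Dusp3 and Adamts14. Dusp3, a phosphatase of MAP kinases, had 11.9, 12.0 and 13.2 CPM in labelled day 7 libraries, against 15.5, 20.6 and 19.7 CPM in labelled day 0 libraries. In control libraries Dusp3 had 0.846, 1.62 and 0.874 CPM at day 7, against 6.60, 9.75 and 9.52 CPM at day 0. Adamts14, a protease that trims procollagen, had 11.9, 17.1 and 16.0 CPM in labelled day 7 libraries, against 30.0, 40.7 and 39.9 CPM in labelled day 0 libraries. Control libraries had 6.95, 5.42 and 6.74 CPM of Adamts14 at day 7, against 47.3, 40.6 and 47.4 CPM at day 0. The interaction was 2.36 (SE 0.335) for Dusp3 and 1.53 (SE 0.241) for Adamts14.

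**Figure D5:**
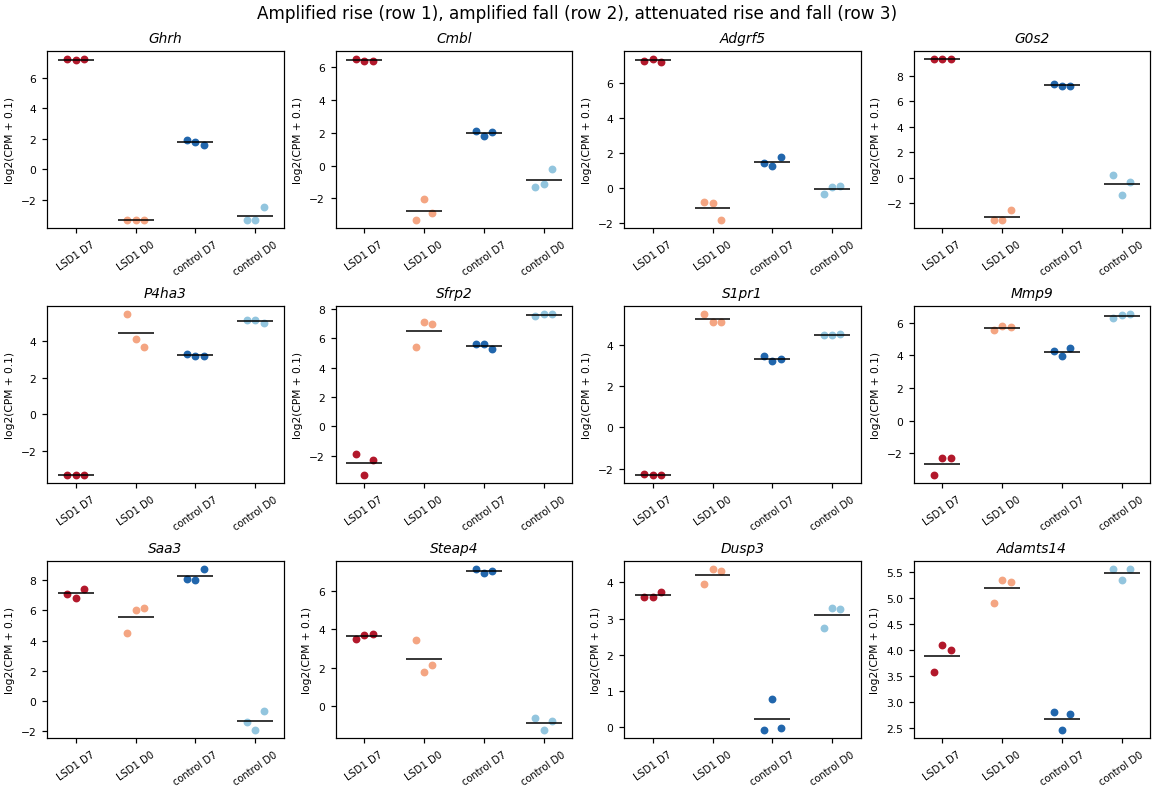
Level of the 12 genes named for amplified rise (top row), amplified fall (middle row) and attenuation (bottom row), as log2(CPM + 0.1), 1 point per library and a line at the group mean; each panel has its own y axis. Both lines move the same way in each panel, and the 3 labelled day 7 libraries are the highest in the top row, for example 156, 168 and 151 CPM for Adgrf5.

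Some regulators of fat cell identity were exceptions to amplification. Of 18 tested adipogenic transcription factors 10 were higher and 2 lower, with 6 amplified rises. Over all tested genes the shares were 23.9% higher, 28.1% lower and 6.66% amplified rises. Klf5, an early adipogenic factor, had opposite signs, with 3.75, 3.00 and 4.30 CPM in labelled day 7 libraries, against 12.6, 7.59 and 6.17 CPM in labelled day 0 libraries. In control libraries Klf5 had 20.4, 22.5 and 11.3 CPM at day 7, against 9.77, 7.17 and 9.32 CPM at day 0. Ebf2, a factor of brown and beige precursors, rose in labelled libraries alone. It had 10.0, 9.40 and 6.62 CPM in labelled day 7 libraries, against 1.47, 2.79 and 2.08 CPM in labelled day 0 libraries. Control libraries had 9.93, 8.85 and 8.82 CPM of Ebf2 at day 7, against 11.8, 10.2 and 8.97 CPM at day 0. The day 7 libraries of the lines overlapped, and the gap was at day 0. Twist1, a factor of mesenchymal cells, fell in control libraries alone, with an interaction of 0.82 (SE 0.143, edgeR adjusted p = 0.000398). The interaction was −2.30 (SE 0.427) for Klf5 and 2.19 (SE 0.323) for Ebf2.

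Deposited ChIP-seq peaks at the start sites and base composition were not used to form the classes. A peak of LSD1 in labelled day 7 cells, 1 of 27221 in that list, lay within 1 kb of an annotated start for 95.4% of 349 opposite rising and 90.3% of 876 amplified rising genes. The share was 66.9% of 447 opposite falling and 69.4% of 1018 amplified falling genes, against 80.2% of all 13069 tested genes with a start site. In the labelled day 0 list (13997 peaks) the shares were 84.0% of opposite rising, 72.9% of amplified rising, 65.1% of opposite falling and 64.6% of amplified falling genes, against 70.7% of all. In the control day 7 list (8303 peaks) they were, in the same order, 78.5%, 70.0%, 43.0% and 44.7%, against 59.2% of all. In the control day 0 list (3024 peaks) they were 29.5%, 20.9%, 17.7% and 20.0%, against 22.7% of all, so that amplified rising genes lay below all tested genes there. The lists differ in size and were not compared with each other. For Nrf1 at day 7 (1629 peaks) the shares were 18.1% of opposite rising, 15.4% of amplified rising, 6.71% of opposite falling and 5.01% of amplified falling genes, against 13.0% of all. The title of that Nrf1 sample names LSD1 cells and its genotype label control, so it was used without a genotype. There is 1 sample for each list and the read depth behind it is unknown, so no test was made. GC content was taken over the exons of the counted transcript, not at start sites. Its median was 54.4% for opposite rising and 45.9% for opposite falling genes, against 50.4% for all tested genes. The median level was 68.6 CPM for opposite rising and 14.9 CPM for opposite falling genes, against 29.6 CPM for all tested genes. The part of GC content and level in the peak shares was not tested.

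The promoters of Ndufa11 (opposite rise, chr17:56717512-56717811, plus strand) and Mrpl12 (amplified rise, chr11:120484387-120484686, plus strand) are shown for the letters of the NRF1 site. Both had an LSD1 peak within 1 kb of a start in all 4 LSD1 lists, Mrpl12 had an Nrf1 peak at day 0 and not at day 7, and Ndufa11 had none at either day. The motif, GCGCANGCG on both strands, is in capitals. These letters too were set after shares of the classes had been seen. The motif was found for 21 of 64 oxidative phosphorylation and 15 of 67 mitochondrial ribosome genes with an entry, and for 20.1% of 283 opposite rising, 17.5% of 704 amplified rising, 7.91% of 354 opposite falling and 7.28% of 769 amplified falling genes. All tested genes with an entry had it in 15.1% and all genes of the RefSeq table (GRCm38.p6) in 7.03%.
Ndufa11: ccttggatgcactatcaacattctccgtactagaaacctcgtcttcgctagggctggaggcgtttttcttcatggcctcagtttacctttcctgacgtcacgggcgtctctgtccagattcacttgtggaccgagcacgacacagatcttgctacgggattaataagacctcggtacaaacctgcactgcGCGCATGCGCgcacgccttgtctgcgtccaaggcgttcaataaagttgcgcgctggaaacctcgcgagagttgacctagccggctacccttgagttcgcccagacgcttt
Mrpl12: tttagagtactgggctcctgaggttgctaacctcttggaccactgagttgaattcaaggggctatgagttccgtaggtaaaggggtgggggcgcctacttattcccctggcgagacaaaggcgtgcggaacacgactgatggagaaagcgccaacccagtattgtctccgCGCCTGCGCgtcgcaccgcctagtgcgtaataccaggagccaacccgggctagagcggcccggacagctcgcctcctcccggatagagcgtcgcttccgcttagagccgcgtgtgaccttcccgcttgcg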

How the data were processed

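The authors deposited 12 RNA-seq files of raw read counts per RefSeq transcript, with no header. For the RNA-seq, HOMER, DESeq 1.8.3, edgeR and TopHat2 (version 2) with mm10 as the build are named per the submitters' processing notes, and for the ChIP-seq MACS 1.41 and Bowtie2. Their roles, order and whether counting used strand are not given in the sources used here. Each deposited peak list, 1 sample each, holds a peak score from the authors, used here for an alternative minimum only.

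Of 30521 transcripts per file, 29140 were named from the RefSeq table and 181 from GENCODE, and 1200 unnamed ones, with 0.896% of counts, were left unnamed. For each gene the 1 transcript with most counts on average was kept. Isoforms of 1 gene can share reads, so totals over all transcripts may count a read more than once. Genes passing filterByExpr (13356) were fitted with edgeR 4.0.16 in R 4.3.3 (TMM, robust quasi-likelihood, 4 group means, 12 libraries). The interaction was tested two-sided as (labelled day 7 minus labelled day 0) minus (control day 7 minus control day 0), with Benjamini-Hochberg adjustment over all genes and a threshold of 0.05. The fit was tested on simulated data. CPM use TMM-scaled library sizes, and list means use log2 CPM with a prior count of 2.

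A gene was opposite, amplified or attenuated only if the interaction and both day effects passed. Named genes were the 6 largest per opposite direction (by the smaller day effect), 4 per amplified and 2 per attenuated direction (by interaction), with a mean of at least 10 CPM and no overlap between days in either line, plus up to 1 member per list and direction by adjusted p, and Kdm1a, Nrf1, Pparg, Cebpa, Adipoq, Ppargc1a, Fgf21 and Pdgfra. The members, the 31 lists and the rules were chosen with earlier results of these data known. The 2 day effects and the 2 label differences share libraries. Folds against groups with 0 counts use a floor of 3 counts over the group, and ratios over 1 to 3 counts have an exact 95% interval (Clopper-Pearson); both cover counting error only. Nothing says that replicates came from separate cultures beyond the label, so p-values measure the spread between these libraries. Alternatives were other scalings, filters, transcripts, thresholds, DESeq2 1.42.0, length and GC trends, a replicate block and each library left out.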

Additional observations from a re-analysis of the deposited data

Results flagged for a closer look

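The day effect differed between the lines, by the test of the interaction itself (edgeR quasi-likelihood, Benjamini-Hochberg adjusted p under 0.05), for each gene named here, and the sign of the day effect differed for 818 genes. The values below are interactions on the log2 scale, the labelled day effect minus the control day effect, with 3 libraries in each of the 4 groups. Among genes that rose in labelled and fell in control libraries, the interaction was 4.13 for Sema5a, 2.94 for Il4i1b, 2.87 for Boc, 2.41 for Eda, 2.71 for Tenm4, 2.93 for Ddah1 and 2.51 for Atf5. In the same class it was also 1.50 for Asns, 2.08 for Chac1, 2.44 for Ndufa11 and 1.33 for Atf4. Among genes that fell in labelled and rose in control libraries, it was −13.66 for Il1rn, −10.66 for Gm4951, −9.38 for Iigp1, −8.53 for Serpina3g, −5.70 for Prl2c2, −5.27 for Gbp6 and −4.64 for Pdgfra. In the same class it was also −6.09 for Nlrc5, −9.98 for Cxcl5, −2.30 for Klf5, −9.25 for Ifit1, −7.30 for Gbp3, −4.29 for C3 and −5.36 for Cxcl1. For amplified rises the value was 8.03 for Ghrh, 7.31 for Cmbl, 7.05 for Adgrf5, 6.56 for G0s2, 1.61 for Pparg, 2.80 for Cebpa and 3.05 for Adipoq. In the same class it was also 2.32 for Idh3a, 2.32 for Decr1, 1.90 for Mrpl12, 1.95 for Esrra and 2.78 for Agpat2. For amplified falls the interaction came to −10.29 for P4ha3, −7.95 for Sfrp2, −7.28 for S1pr1, −7.22 for Mmp9, −0.57 for Kdm1a, −4.38 for Ccnb1 and −5.97 for Fbln1. For attenuated rises it came to −8.57 for Saa3, −7.16 for Steap4 and −4.21 for Lcn2. For attenuated falls it came to 2.36 for Dusp3, 1.53 for Adamts14 and 0.70 for Col3a1. For genes that rose in labelled libraries alone it stood at 1.91 for Ccne2, 2.53 for Cyc1, 1.83 for Me1, 1.79 for Lss and 2.19 for Ebf2. For genes that fell in labelled libraries alone it stood at −4.05 for Ifit2, −5.17 for C1s1 and −6.20 for Ccl2. Without labelled day 0 replicate 1, Cyc1 and Me1 were amplified rises and C1s1 was an opposite fall. For a gene that fell in control libraries alone it was 0.82 for Twist1. Ghrh and P4ha3 each have a group without counts, so their fitted values are no bounds. Il4i1b and Atf5 overlap and can share reads, so they may not be separate results. The causes of these differences were not tested.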

How the results depend on the processing

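Over the alternatives tried, the interactions of the named genes kept direction and side of the threshold in 1348 values, lost the call in 2, gained it in 1 and reversed in 9. No DESeq2 value of Gm4951 is among them. The counts moved with the scaling, the threshold and 1 library. With total counts alone as the scale, 1803 genes were higher and 5418 lower, 131 and 825 were opposite rises and falls, and 126 and 50 attenuated rises and falls. Upper-quartile scaling gave 224 opposite rises. The length trend removed gave 125 attenuated falls. At an adjusted p of 0.01 the opposite rises and falls were 149 and 247, the amplified ones 559 and 644, and the attenuated ones 36 and 26. With all effects at least 1, the interaction was higher for 1627 genes, the labelled day effect higher for 2370, the control day effect higher for 1448 and lower for 1124, and the classes held 24, 196, 300, 428, 31 and 9 genes.

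Leaving out 1 library gave 252 to 784 opposite rises, 333 to 814 opposite falls, 697 to 1304 amplified rises, 815 to 1454 amplified falls, 62 to 164 attenuated rises and 49 to 189 attenuated falls. The highest of these were without labelled day 0 replicate 1. The replicate block gave 297 and 410 opposite and 809 and 955 amplified genes. Same-numbered libraries did not deviate together: correlations of their deviations were −0.249 to 0.114 over 18 pairs, 1 of which was over 0.1, and 4 correlated best with their own number, so the numbers were not taken to pair the samples.

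With a 5 kb window, LSD1 peaks were found for 92.9% of amplified rises, 73.1% of amplified falls and 83.2% of all tested genes, and Nrf1 peaks for 13.8% of all. With a peak score of at least 100, LSD1 peaks were found for 60.6% of opposite falls, 61.7% of amplified falls and 76.9% of all, and Nrf1 peaks for 12.3% of opposite rises, 2.91% of opposite falls, 8.56% of amplified rises, 2.26% of amplified falls and 7.22% of all. Genes that did not pass changed sign. The interaction of Ppargc1a was 0.30 with the GC trend removed, 0.24 with the length trend removed, and 0.12, 0.01 and 0.02 without single libraries, and without labelled day 0 replicate 1 it passed at −0.41 (edgeR adjusted p = 0.043). The interaction of Nrf1 was −0.033 among genes of at least 10 CPM, −0.33 with total counts, −0.10 with upper quartiles and −0.08 without labelled day 0 replicate 1, and with single libraries left out it reached 0.178. Col3a1 no longer passed with total counts (0.29), nor Ghrh without control day 0 replicate 3 (5.46). Beyond changes that follow from fewer genes or libraries, the cause was not tested. A few counts in 1 group limit the folds of genes near 0.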
